A study of Homo sapiens with 11 samples.

Results

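A549 and HCC827, both cell lines of human lung adenocarcinoma, were compared with each other in their control state, without the TRIM58 transgene. The members were chosen by their labels alone, as every array of cells that carried the empty vector. They are 6 of the 11 arrays of the series and give 5 of its 10 replicates. A549 mock was covered by 4 arrays of 3 replicates, since arrays 1-1 and 1-2 carry the same control cell in their labels and were averaged to replicate 1. HCC827 mock was covered by 2 arrays of 2 replicates. Per the study's methods, mock cells of both lines had been infected with a retrovirus made from the empty pMXs-Neo vector and selected with G418, so both groups carry the vector and went through the drug. A549 clones were isolated and subcultured, and a legend of the study calls the HCC827 transfectants crude, so the A549 arrays may each stand for 1 clone and the HCC827 arrays for mixed cells. The remaining 5 arrays are of cells of the same lines that carried FLAG-tagged wild-type TRIM58 (TRIM58-WT), 3 of A549 and 2 of HCC827. The labels give no age, sex or treatment, and do not say that replicates came from separate cultures.

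A549 is known for mutations of KEAP1, STK11 and SMARCA4 and a deletion at CDKN2A. KEAP1 holds the transcription factor NRF2 (gene NFE2L2) low in unstressed cells by handing it to a CUL3 ubiquitin ligase. When KEAP1 is lost, NRF2 stays in the nucleus, pairs with a small MAF protein and drives genes for quinone reduction, glutathione, NADPH and drug conjugation. HCC827 is known for an activating in-frame deletion in EGFR with amplification of the gene, and grows on signals of the EGF receptor. The comparison says nothing of what any 1 mutation does, since the lines differ in all of them at once.

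Each value below is a log2 signal of 1 probe relative to the 75th percentile of its array, so 0 is the level of a probe at that percentile, and values of different probes are not compared with each other. Values of A549 are given for arrays 1-1, 1-2, 2 and 3 in that order, and those of HCC827 for arrays 1 and 2. A difference is A549 mock minus HCC827 mock on the log2 scale. A probe or gene is called when its adjusted p (limma, Benjamini-Hochberg over all probes tested) was under 0.05 and the lines differed by at least 2-fold. Where a line exceeded the background on none of its arrays, the fold is a lower bound, written as "at least". Such a probe was tested because of its level in the other line alone, so the filter largely set its direction. Counts of lists with many such genes are therefore a description and not a test of direction. Genes with several probes are given by the brightest. In bulk RNA of this kind, fewer cells that express a gene and less RNA per cell cannot be told apart.

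The arrays of a line lay closer to each other than to the other line. The SD across probes of the difference of a pair of arrays was 0.32 for A549 arrays 1-1 and 1-2, 0.43 for the HCC827 pair, and between 0.47 and 0.89 for the other A549 pairs, against 1.70 to 1.80 for pairs of arrays from different lines. The array labelled A549 mock 3 stood apart from the other A549 mock arrays. It lay over 2-fold from the mean of the other 3 in 2850 of the 19505 probes tested (14.6%), whereas those 3 spanned over 2-fold among themselves in 1364 (6.99%). TRIM58 itself, a tripartite-motif ubiquitin ligase, read -5.28, -5.33, -5.18 and -0.71 in A549 mock and -5.15 and -5.25 in HCC827 mock. The array labelled mock 3 was thus the single mock array with a TRIM58 signal above background. The TRIM58-WT arrays read only -4.84, -4.63 and -4.63 in A549 and -5.64 and -5.38 in HCC827. The probe thus did not set TRIM58-WT arrays apart, and its signal cannot decide whether the label of that array is right. Whether the probe lies in the sequence carried by the vector is not given in the sources used here. Arrays 1-2 and the one labelled mock 3 shared slide 2, and all other mock arrays were on slide 1. The array labelled mock 3 also decides which probes were tested, since 521 probes above background on the other 3 A549 arrays failed on it and were tested only where HCC827 passed. Results that rest on it are given with and without it below.

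Genes that both lines should share lay close together. None of the 12 household genes was called by limma or by the methods' t-test, 1 was called lower under another scaling, after normexp background correction or without the array labelled mock 3, and 2, HPRT1 at -0.99 and YWHAZ at 0.51, had an unadjusted p under 0.05. GAPDH read 8.38, 8.43, 8.34 and 8.96 against 8.15 and 8.23 (adjusted p = 0.259). Markers of cells that a pure culture should lack were mostly low, with exceptions. All 7 endothelial markers were below background on every array, as were 7 of 8 fibroblast markers in each line, with LUM above it on 3 A549 arrays and COL1A1 on 1 HCC827 array. The summed linear level of the 8 fibroblast markers was 0.381 to 1.34 times the 75th percentile in A549 and 0.381 to 0.394 in HCC827, and that of 10 immune markers was 4.35 to 5.32 and 4.95 to 5.01. The immune marker CD68 read 1.54, 1.41, 1.56 and 0.67 in A549 and 2.03 and 2.04 in HCC827. The erythroid marker HBB read 0.885, 0.690, 0.785 and -2.870 in A549 and was below background in HCC827. No erythroid or fibroblast marker was called, but 1 of each was called higher in A549 without the array labelled mock 3. Of 4 immune genes tested, only CD14 was called, a co-receptor for bacterial lipopolysaccharide that epithelial cells can carry, which read 0.81, 0.68, 0.84 and 0.93 in A549 and -2.44 and -2.32 in HCC827 (difference 3.22, adjusted p = 0.000171).

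In all, 5906 of 19505 probes were called (30.3%), 2753 higher in A549 (14.1%) and 3153 lower (16.2%). Counted as genes, 3960 of 12410 were called (31.9%), with 1914 higher (15.4%) and 2046 lower (16.5%), and the median difference over all genes was -0.06. These shares are the background for every list below. In 1797 of the called probes (30.4%), 1 line was above background on none of its arrays, HCC827 in 705 and A549 in 1092. The replicates of the lines did not overlap in any called probe, but that held in 13596 of all tested probes (69.7%) and in 8956 of the genes (72.2%), so the absence of overlap alone sets few genes apart. The count rested most on the 2 HCC827 replicates. Without HCC827 replicate 1 it was 3773 of 20208 and without replicate 2 it was 4128 of 20391, while without the array labelled A549 mock 3 it was 6800 of 20026.

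EGFR, the receptor whose activating mutation marks HCC827, was strongly lower in A549. It read -0.41, -0.32, -0.27 and 0.24 in A549 (mean -0.13 ± 0.32, SD, n = 3) and 4.31 and 4.22 in HCC827 (mean 4.27 ± 0.07, SD, n = 2). Every HCC827 array lay above every A549 array, and the difference of -4.40 (SE 0.24) was a 21.1-fold lower signal in A549 (adjusted p = 0.000205). The other 2 EGFR probes gave -2.77 and -3.27, so all 3 were called in the same direction with different sizes.

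AKR1B10, an aldo-keto reductase that reduces aldehydes and retinal and is a well-known NRF2 target, showed the opposite. It read 8.90, 8.70, 8.68 and 8.85 in A549 and -0.81 and -0.84 in HCC827, a difference of 9.60 (SE 0.16, adjusted p = 2.97e-05) or 777-fold. A different probe of AKR1B10 gave 9.56. NQO1, the quinone reductase used most often as a readout of NRF2, read 2.19, 2.54, 2.42 and 1.80 in A549 and -0.57 and 0.07 in HCC827. The groups did not overlap, and the 5.46-fold higher level in A549 (2.45, SE 0.30, adjusted p = 0.00274) was much smaller than that of AKR1B10. With the methods' t-test and Benjamini-Hochberg adjustment over all probes, the adjusted p of NQO1 was 0.0922.

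CDKN2A, which encodes the p16 and p14ARF tumour suppressors, read 1.25, 1.05, 1.35 and 0.68 in A549 and 7.97 and 7.86 in HCC827. The difference was -6.85 (SE 0.25, 116-fold, adjusted p = 7.57e-05), yet this probe was above background on all A549 arrays. The other CDKN2A probe read -3.36, -4.01, -4.27 and -4.37 in A549, above background on none of them, and 5.46 and 5.51 in HCC827, at least 332-fold lower in A549. CDKN2B, the neighbouring inhibitor of CDK4 and CDK6, was dim in both lines, with -5.33, -5.45, -5.12 and -4.59 against -2.60 and -2.51, at least 1.26-fold lower in A549 (adjusted p = 0.0019).

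The probes of MTAP, the methylthioadenosine phosphorylase that lies beside CDKN2A, disagreed. The brightest read 1.12, 1.15, 1.33 and 1.00 in A549 and 1.02 and 0.98 in HCC827, with a difference of 0.16 (adjusted p = 0.498), and the groups overlapped. The other 2 probes were above background on no A549 array and on both HCC827 arrays. One read -5.33, -5.42, -5.30 and -4.72 against 2.66 and 2.55, at least 45.0-fold lower in A549 (adjusted p = 6.42e-05), and the other was at least 39.1-fold lower (adjusted p = 6.96e-05). Under the rule of the brightest probe MTAP counts as not called, so its place in the counts below does not stand for the other 2 probes.

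Of the further genes known to be mutated in these lines, SMARCA4 was called. It encodes the ATPase of the BAF chromatin remodelling complex and read 1.03, 1.1, 0.55 and 1.59 in A549 and 5.99 and 5.81 in HCC827, 28.5-fold lower in A549 (-4.83, SE 0.33, adjusted p = 0.000426). KEAP1 (-0.04, adjusted p = 0.856), STK11 (-0.27, adjusted p = 0.287) and CUL3 (-0.71, adjusted p = 0.0908) were not called, and the values of KEAP1 in A549, from 2.47 to 2.82, enclosed both HCC827 values. The NFE2L2 probe was above background on no mock array and was not tested.

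**Figure D1:**
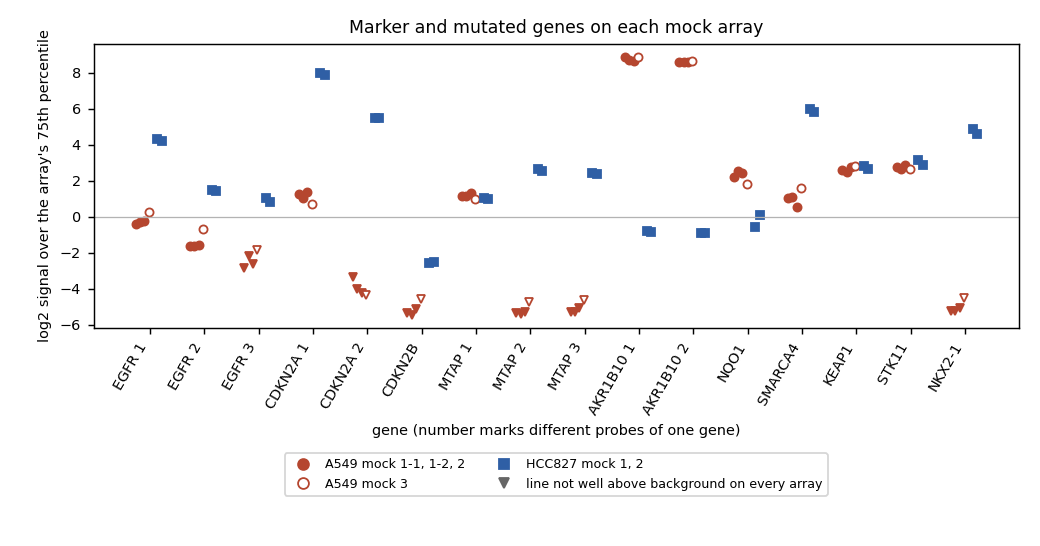
Log2 signal over the 75th percentile of the array (vertical axis) of the marker and mutated genes (horizontal axis, a number marks different probes of 1 gene) on each mock array. Circles are A549, open for the array labelled mock 3, squares are HCC827, and triangles mark a line that was not well above background on every array. EGFR, CDKN2A and SMARCA4 lie higher in HCC827, AKR1B10 and NQO1 higher in A549, and the MTAP probes split into 1 near 1 in both lines and 2 below background in A549.

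Genes around EGFR on chromosome 7 were read in the order of the RefSeq table, 15 protein-coding genes on each side. SEC61G, a subunit of the translocon and the nearest gene on 1 side, read 4.63, 4.66, 4.75 and 4.39 in A549 and 8.20 and 8.25 in HCC827 (-3.63, adjusted p = 0.000171). VOPP1, on the other side, read 3.03, 2.76, 2.86 and 3.08 against 7.15 and 7.18 (-4.22, adjusted p = 8.53e-05). Between EGFR and VOPP1, LANCL2 was at least 4.68-fold lower in A549 (adjusted p = 0.000237), and VSTM2A, beyond SEC61G, at least 4.65-fold lower (adjusted p = 0.00542). Farther out, FIGNL1, GRB10, MRPS17, NIPSNAP2, PSPH, CCT6A, SUMF2 and CHCHD2 were also called lower in A549, by differences of -1.07 (CHCHD2) to -2.57 (PSPH). They were interrupted by ZNF713 at 0.81 (adjusted p = 0.0844), and NUPR2 was higher in A549 (2.66, adjusted p = 0.000388). UPP1, DDC, COBL and POM121L12 were not called.

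Around CDKN2A on chromosome 9 few genes could be tested, since the interferon alpha genes next to it were above background in neither line. Of those tested, TUSC1 differed by -0.77 (adjusted p = 0.0247), CAAP1 by 0.68 (adjusted p = 0.0195), and PLAA, IFT74 and MOB3B by 0.50, 0.33 and 0.02, none of them called. KLHL9, a substrate adaptor of CUL3, was higher in A549 (1.27, adjusted p = 0.00749). The genes called lower in A549 there were CDKN2A and CDKN2B, beside the 2 MTAP probes above.

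**Figure D2:**
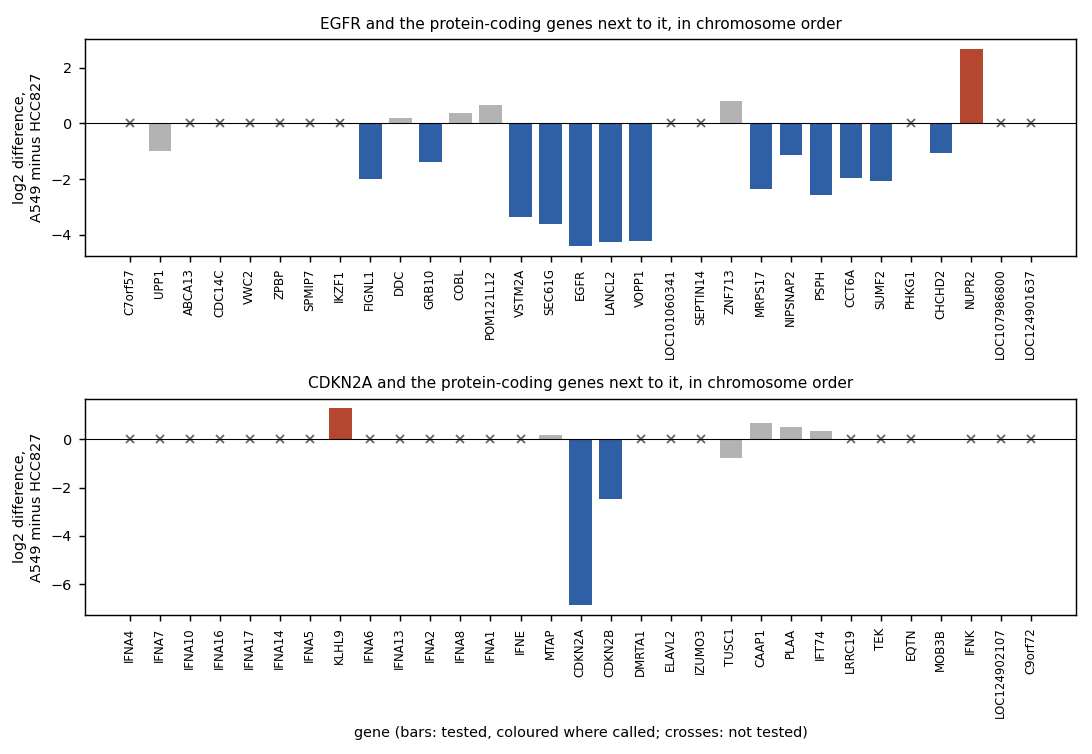
Log2 difference A549 mock minus HCC827 mock (vertical axis) of EGFR, CDKN2A and up to 15 protein-coding genes on each side in chromosome order (horizontal axis). Blue bars are called lower in A549, red bars called higher, grey bars tested but not called, and crosses not tested. Bars for VSTM2A, LANCL2 and CDKN2B are fitted differences, of which only a bound holds since A549 was below background. EGFR, SEC61G, LANCL2 and VOPP1 form a block of -3.63 to -4.40, and MTAP is drawn by its brightest probe.

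Among the receptors of the EGFR family, ERBB2 read between 2.42 and 2.93 in A549 and 3.35 and 3.13 in HCC827 (-0.55, adjusted p = 0.0792). ERBB3, the partner that lacks strong kinase activity of its own, read 1.28, 1.1, 1.16 and -1.23 in A549 and 1.65 and 1.49 in HCC827. Its brighter probe was not called (-1.20, adjusted p = 0.272), the other of the 2 was, and the array labelled mock 3 lay far below the other A549 arrays. ERBB4 was below background in A549 and at least 1.37-fold lower (adjusted p = 0.00143).

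Of 10 ligands of these receptors 7 were tested, with 2 called in each direction. NRG4, a ligand of ERBB4, read 0.22, 0.00, 0.26 and -0.66 in A549 and was below background in HCC827, at least 8.77-fold higher in A549 (adjusted p = 0.000348). EREG, a ligand of EGFR, read 1.13, 1.14, 1.06 and 1.74 in A549 and 3.57 and 3.52 in HCC827, lower in A549 by 2.23 (adjusted p = 0.00216). TGFA was higher in A549 (1.19) and BTC lower (-2.82), but the call of TGFA ended without HCC827 replicate 1 (0.94, adjusted p = 0.104) and that of BTC without either HCC827 replicate (adjusted p = 0.164 and 0.148). AREG and HBEGF, at -0.75 and -1.35, were not called.

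Genes that the RAS-MAPK cascade switches on, and which in turn damp it, did not move as a group. Of 22 tested, 3 were higher and 8 lower in A549, with a median of -0.11. DUSP4, a nuclear phosphatase of ERK, read 4.26, 4.33, 4.33 and 4.47 in A549 and -0.03 and -0.01 in HCC827, 20.9-fold higher in A549 (4.39, SE 0.16, adjusted p = 7.57e-05). EGR1, an immediate early transcription factor, read -0.91, -0.96, -0.74 and -2.61 in A549 and 3.5 and 3.21 in HCC827 (-4.79, adjusted p = 0.00283). FOSL1, an AP-1 subunit, read -0.42, -0.46, -0.56 and -0.03 against 2.20 and 2.20 (-2.54, adjusted p = 0.000783). SPRY1 (-2.89), SPRY2 (-2.28), ERRFI1 (-1.75), SPRED2 (-1.55) and MYC (-1.51) were lower too, the first 4 of them inhibitors of receptor or RAS signalling. DUSP6, a cytoplasmic phosphatase of ERK, was lower (-1.80, adjusted p = 0.0194), though without HCC827 replicate 1 or 2 the adjusted p was 0.12 and 0.0917. IER3 was higher (2.91, adjusted p = 0.000394), and CCND1, SPRY4, ETV5 and PHLDA1, at 0.31, -0.36, 0.10 and -0.19, were not called.

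Other receptor tyrosine kinases were more often higher in A549, 7 of the 16 tested against 2 lower, with a median of 0.81. Without HCC827 replicate 1 or 2, 3 and 2 of them were called higher. NTRK3, the receptor for neurotrophin-3, read 1.94, 1.84, 2.05 and 4.40 in A549 and was below background in HCC827, at least 64.6-fold higher in A549 (adjusted p = 0.00139). IGF1R, the IGF1 receptor, read 2.49, 2.44, 2.35 and 2.76 against 0.21 and 0.50 (2.17, adjusted p = 0.00116). FGFR1 was at least 7.90-fold higher (adjusted p = 0.00881, but 0.0681 without HCC827 replicate 2), and AXL read 2.19, 2.00, 2.26 and 4.06 against -0.11 and -0.42 (3.07, adjusted p = 0.0148, but 0.0789 and 0.094 without HCC827 replicate 1 and 2). For NTRK3, FGFR1 and AXL the array labelled mock 3 was the highest of the A549 arrays. MET, the hepatocyte growth factor receptor, was lower in A549, at 5.25, 5.12, 5.33 and 5.35 against 6.64 and 6.61 (-1.33, adjusted p = 0.00229), and MERTK at least 3.69-fold lower (adjusted p = 0.000565).

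Targets of NRF2 were mostly higher in A549. NRF2 binds antioxidant response elements, whose core letters are TGACNNNGC. On either strand these letters stood in 3702 of 27305 RefSeq promoters of 300 bases (13.6%), in 14.3% of the promoters of genes called higher in A549 and in 14% of those called lower. Of the 64 genes of the 5 lists of NRF2 targets, 48 had a promoter in the table and 13 of these held the letters (27.1%), 9 of 31 among those called higher in A549 (29%) and 4 of 17 among the others (23.5%). Promoters of 4 members called higher in A549 are shown because each holds the letters once within 300 bases of the start of its gene, and because they span the roles of the group. They are GPX2 (chr14:64942696-64942995, minus strand), GSTP1 (chr11:67583562-67583861, plus strand), CYP4F11 (chr19:15934818-15935117, minus strand) and PIR (chrX:15493284-15493583, minus strand), from RefSeq on GRCh38.p14, each 250 bases before and 50 bases after the start, read 5′ to 3′ on the strand of the gene, with the matching letters or their reverse complement in capitals.
GPX2: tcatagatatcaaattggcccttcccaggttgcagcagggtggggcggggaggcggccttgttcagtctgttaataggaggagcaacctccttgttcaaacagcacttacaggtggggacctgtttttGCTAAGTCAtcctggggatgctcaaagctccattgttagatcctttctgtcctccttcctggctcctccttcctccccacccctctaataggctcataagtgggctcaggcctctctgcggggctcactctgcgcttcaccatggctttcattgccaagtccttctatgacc
GSTP1: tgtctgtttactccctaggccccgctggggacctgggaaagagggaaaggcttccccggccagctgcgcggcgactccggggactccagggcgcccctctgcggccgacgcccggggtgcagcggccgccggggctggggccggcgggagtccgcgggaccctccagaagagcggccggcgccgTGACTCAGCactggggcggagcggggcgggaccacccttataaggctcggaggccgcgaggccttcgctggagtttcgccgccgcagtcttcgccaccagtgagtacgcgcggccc
CYP4F11: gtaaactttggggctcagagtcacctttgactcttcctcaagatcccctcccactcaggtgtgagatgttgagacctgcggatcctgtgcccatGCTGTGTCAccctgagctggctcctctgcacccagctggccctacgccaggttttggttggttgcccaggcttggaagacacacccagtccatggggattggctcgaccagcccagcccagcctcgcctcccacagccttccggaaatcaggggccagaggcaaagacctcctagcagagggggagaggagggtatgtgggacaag
PIR: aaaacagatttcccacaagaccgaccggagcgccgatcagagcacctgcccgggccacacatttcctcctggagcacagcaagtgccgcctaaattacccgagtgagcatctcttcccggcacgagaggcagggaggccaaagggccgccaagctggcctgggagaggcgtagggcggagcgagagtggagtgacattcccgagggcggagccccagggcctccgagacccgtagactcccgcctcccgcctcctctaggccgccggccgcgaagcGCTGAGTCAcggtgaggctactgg
Counted from the 5′ end, the match begins at base 129 of the GPX2 sequence, 185 of GSTP1, 95 of CYP4F11 and 277 of PIR, the last of these after the start of the gene. The letters describe these windows and are not a measurement of binding.

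The genes of these 4 promoters were called higher in A549 by very different sizes. GPX2, the gastrointestinal glutathione peroxidase, read 7.03, 7.03, 7.16 and 5.68 in A549 and -0.69 and -0.51 in HCC827, 149-fold higher (7.22, SE 0.49, adjusted p = 0.000405). CYP4F11, a fatty acid hydroxylase, read 1.68, 1.76, 1.68 and 0.61 and was below background in HCC827, at least 23.7-fold higher (adjusted p = 0.000418). PIR, an iron-binding nuclear protein, read 5.14, 4.95, 5.06 and 5.47 against 2.86 and 2.87 (2.33, adjusted p = 0.00084). GSTP1, the main glutathione transferase of lung epithelium, was high in both lines, at 9.82, 9.90, 9.80 and 10.44 in A549 and 8.66 and 8.62 in HCC827 (1.40, adjusted p = 0.00886), and lost the call without HCC827 replicate 1 or 2 (adjusted p = 0.0697 and 0.0708). None of the 4 overlapped between the lines, as held for every called probe and for 72.2% of all genes tested.

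Across the 5 lists of NRF2 targets, 58 of 64 genes were on the array and 56 tested. Of these 41 were called higher in A549 (73.2%, against 15.4% of all genes), 2 lower and 13 were not called, with a median of 2.10. Several of the 41, such as AKR1C1, ALDH3A1 and ALDH1A1, were above background in A549 alone, so the filter largely set their direction. The lists were also chosen with earlier results of these data known, so the share is a description and not a test. No list of the 5 had fewer calls in either direction without the array labelled A549 mock 3. Aldo-keto reductases and other enzymes of carbonyl and quinone reduction were all called higher, 11 of 11 tested, with a median of 4.43. AKR1C1, a hydroxysteroid dehydrogenase, read 7.32, 7.64, 7.91 and 7.91 in A549 and was below background in HCC827, at least 2050-fold higher (adjusted p = 2.97e-05). AKR1C3, which makes testosterone and prostaglandin F, read 7.90, 8.37, 8.36 and 8.39 against 0.50 and 0.86 (7.61, adjusted p = 4.32e-05). PTGR1, a prostaglandin reductase, was 21.5-fold higher (4.43, adjusted p = 0.000308). AKR1B15 (9.65) and AKR1C4 (at least 44.8-fold) have near-identical relatives among AKR1B10 and the other AKR1C genes, so their own levels are uncertain. The same reserve holds in turn for AKR1B10, AKR1C1 and AKR1C3. CBR1, a carbonyl reductase, had the smallest difference of the list (1.41, adjusted p = 0.00189).

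Glutathione and thioredoxin genes were less uniform, with 8 higher and 1 lower of 16 tested (median 1.08). Without either HCC827 replicate 5 were called higher. SRXN1, sulfiredoxin, which repairs peroxiredoxins, read 5.94, 5.82, 5.92 and 5.83 in A549 and 2.89 and 2.84 in HCC827 (3.01, adjusted p = 0.000171). SLC7A11, the cystine importer, read 4.43, 4.44, 4.64 and 4.22 against 2.44 and 2.51 (1.96, adjusted p = 0.00123). Of both subunits of the enzyme that starts glutathione synthesis, the catalytic GCLC was called (1.25, adjusted p = 0.00313), while the modifier GCLM (0.65, adjusted p = 0.0964) was not. TXNRD1, thioredoxin reductase and a usual NRF2 target, was not called either (0.36, adjusted p = 0.215), nor were PRDX1 (0.24) and MGST1 (0.25).

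Enzymes of the pentose phosphate pathway, which make NADPH, were higher in 3 of 6 cases (median 1.44). PGD, an oxidative step of the pathway, read 6.74, 6.61, 6.66 and 6.46 in A549 and 3.30 and 3.38 in HCC827 (3.26, adjusted p = 0.000171), and TALDO1 differed by 1.97 (adjusted p = 0.00072). TKT (0.91), ME1 (0.78) and IDH1 (0.21) did not reach the call.

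Among genes of iron, haem and export 7 of 11 were higher and 1 lower (median 1.11). The higher ones were 4 without HCC827 replicate 2 and 4 after normexp. FTL, the ferritin light chain, read 7.82, 7.65, 7.66 and 8.26 in A549 and 4.24 and 4.04 in HCC827 (3.75, adjusted p = 0.000357). HMOX1, haem oxygenase, read 5.72, 5.54, 6.0 and 6.59 against 2.93 and 2.76 (3.23, adjusted p = 0.00125). ABCC1, a glutathione conjugate pump, was 7.09-fold higher (2.83, adjusted p = 0.000484). ABCC5, another pump, was lower by its brightest probe (-1.44, adjusted p = 0.0353), with 1 of its 3 probes called, and its call ended without A549 replicate 1 (adjusted p = 0.0547) or HCC827 replicate 1 (0.183) or 2 (0.127).

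All 12 tested genes of conjugation and other detoxification were called higher in A549, with a median of 4.80, or 3.86 with members below background in HCC827 set at their bound. ALDH3A1, an aldehyde dehydrogenase of cornea and lung cancer, read 6.99, 6.97, 6.85 and 6.58 in A549 and -5.55 and -5.46 in HCC827, at least 1050-fold higher (adjusted p = 2.97e-05). ALDH1A1, retinaldehyde dehydrogenase, read 7.99, 8.02, 7.08 and 7.76 and was below background in HCC827, at least 1843-fold higher (adjusted p = 4.32e-05). SPP1, osteopontin, was at least 419-fold higher, NR0B1, an orphan nuclear receptor known from KEAP1-mutant lung cancer, at least 84.8-fold, and UGT1A6, a glucuronosyltransferase, at least 23.1-fold. Of the regulators of NRF2, MAFK, its small MAF partner, read 4.70, 4.29, 4.43 and 4.04 against 2.45 and 2.25 (1.97, adjusted p = 0.00169). MAFG (1.32) and SQSTM1 (1.41) were called, but each lost the call without HCC827 replicate 1 (adjusted p = 0.0696 and 0.118) or 2 (0.07 and 0.121), and SQSTM1 also without A549 replicate 1 (0.0697). Without either HCC827 replicate, 1 of the regulators stayed called higher. BACH1 (0.30), MAFF (-0.57) and NFE2L1 (0.42) were not called.

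**Figure D3:**
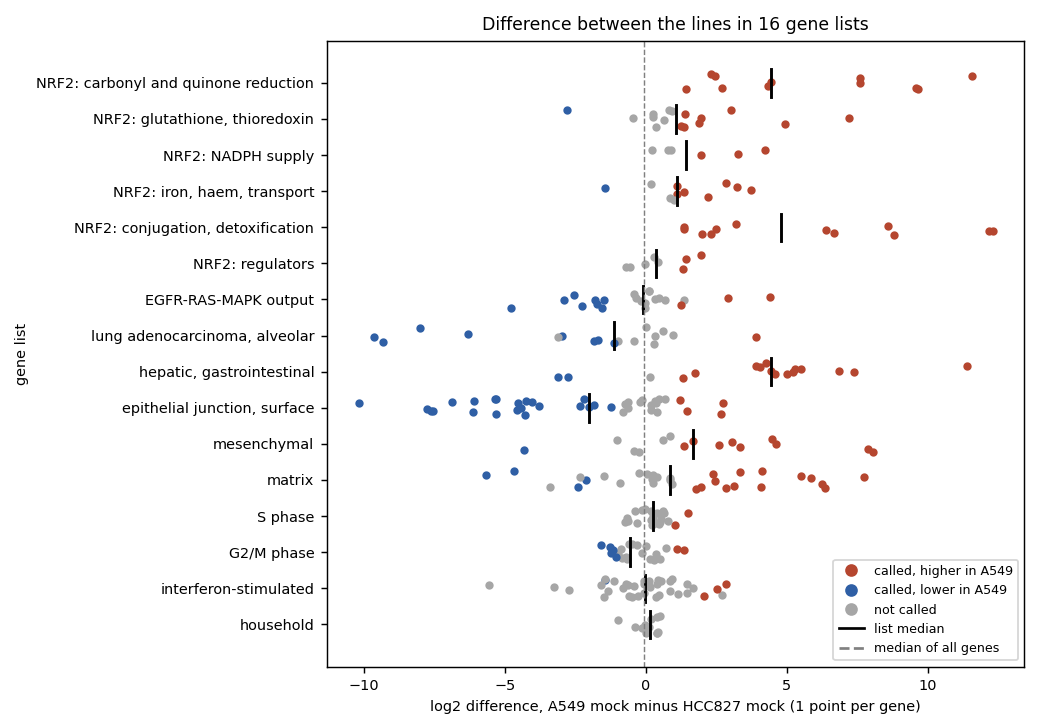
Log2 difference A549 mock minus HCC827 mock (horizontal axis) of each tested gene of 16 lists (rows). A point is a gene by its brightest probe, red where called higher in A549, blue where called lower and grey where not called, a black bar is the median of the list and the dashed line the median of all genes (-0.06). Points of genes below background in 1 line are fitted differences. The NRF2 target lists lie right of the line, with medians of 1.08 to 4.80, and epithelial genes left of it, with a median of -2.02.

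Beyond NRF2 targets, the aldehyde dehydrogenases as a family gave 6 higher and 1 lower of 15 tested (median 0.75). ALDH1A3, which also makes retinoic acid, was the member lower in A549, at 0.30, 0.28, 0.45 and 0.35 against 5.11 and 5.06 (-4.72, SE 0.16, 26.4-fold, adjusted p = 6.54e-05). It was above background in both lines, while ALDH1A1 was so only in A549. ALDH2 (2.61, adjusted p = 0.00463), ALDH3B1 (1.91) and ALDH3A2 (1.34) were higher, and 8 members were not called.

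Cytochrome P450 and glucuronosyltransferase genes gave 10 higher and 3 lower of 15 tested, with a median of 3.98, or 2.88 at the bounds. UGT2B10 read 3.15, 3.14, 3.12 and 2.74 in A549 and was below background in HCC827, at least 75.4-fold higher (adjusted p = 4.24e-05), though UGT2B genes are near-identical in sequence and their own levels uncertain. CYP24A1, which breaks down vitamin D, was at least 97.7-fold higher (adjusted p = 4.24e-05). CYP1A1, the classical target of the aryl hydrocarbon receptor, was below background in A549 and read 1.31 and 1.21 in HCC827, at least 17.7-fold lower in A549 (adjusted p = 0.000353), while CYP1B1, another target, was higher (3.97, adjusted p = 0.000151). The receptor gene AHR was not called (-0.93, adjusted p = 0.118). CYP26A1, which degrades retinoic acid, was at least 15.1-fold lower in A549 (adjusted p = 0.00126).

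Genes of the LKB1 kinase (STK11) and of the CREB coactivators it restrains through SIK kinases were higher in A549 in 8 of 16 cases and lower in 1, with a median of 2.11. INSL4, an insulin-like peptide of placenta, read 5.08, 5.04, 5.11 and 4.05 in A549 and -5.10 and -5.24 in HCC827, at least 251-fold higher (adjusted p = 8.02e-05). LINC00473, a non-coding RNA induced by CREB, read 3.95, 3.87, 4.10 and 3.32 and was at least 129-fold higher (adjusted p = 5.4e-05). PDE4B, a cAMP phosphodiesterase, was at least 44.3-fold higher and NR4A3, an orphan nuclear receptor, at least 35.2-fold. SIK1, itself a CREB target, read 3.39, 3.39, 3.49 and 3.26 against -0.82 and -0.80 (4.19, adjusted p = 8.5e-05). Among the coactivators, CRTC3 was higher (3.34, adjusted p = 0.000957) while CRTC1 (-0.40) and CRTC2 (-0.10) were not called. CAB39, the scaffold of the LKB1 complex, was lower in A549 (-1.75, adjusted p = 0.00464), and STRADA (0.01) was not called. CPS1, carbamoyl phosphate synthetase, is in this list and in that of hepatic genes below.

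Of the CDK inhibitors, RB family and G1 cyclins, 5 were higher and 4 lower of 21 tested, with a median of 0.17, and 2 lower after normexp. CDK4, the partner of D-type cyclins, read 4.5, 4.54, 4.58 and 4.61 in A549 and 8.47 and 8.58 in HCC827, 15.5-fold lower in A549 (-3.96, SE 0.15, adjusted p = 8.65e-05). CCND3, cyclin D3, was higher, at 4.05, 4.0, 4.16 and 4.53 against 0.33 and 0.22 (3.96, adjusted p = 0.000202). CDKN1A, the p21 inhibitor, read -0.24, -0.46, -0.16 and 0.04 in A549 and was below background in HCC827, at least 8.43-fold higher (adjusted p = 0.000171). CCNE1 (1.91) and E2F2 (2.24) were higher, while CDK6 (0.76), CCND1 (0.31), CDKN1B (-0.17) and RB1 (0.51, adjusted p = 0.0432) stayed under 2-fold.

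Of 22 S phase genes 2 were higher and 0 lower (9.09% called, median 0.26). Of 22 G2/M genes 2 were higher and 5 lower (31.8% called, median -0.56), with 1 higher in each without the array labelled A549 mock 3 or either HCC827 replicate, and 2 or 3 G2/M genes lower without A549 replicate 2 or either HCC827 replicate. PCNA, the replication clamp, read 6.26, 6.34, 6.36 and 6.23 in A549 and 4.75 and 4.83 in HCC827 (1.51, adjusted p = 0.00147). KIF11, a spindle motor, was higher (1.37, adjusted p = 0.00213) and CDC25C, the phosphatase that activates CDK1, lower (-1.17, adjusted p = 0.00325). MKI67 was called (1.11, adjusted p = 0.019), but at 0.91 it stayed under 2-fold without the array labelled A549 mock 3, and its adjusted p was 0.088 and 0.133 without HCC827 replicate 1 and 2. Of 14 genes of polyamine synthesis and methionine salvage, where MTAP acts, 1 was called. That gene was APIP, an enzyme of the same salvage pathway, which read -0.01, -0.07, -0.37 and -0.15 in A549 and was below background in HCC827 (at least 8.25-fold higher, adjusted p = 6.96e-05). PRMT5, the methyltransferase that methylthioadenosine inhibits, differed by -0.41 (adjusted p = 0.183).

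The lines differed in their lineage genes. NKX2-1, the master regulator of lung epithelium, read -5.24, -5.27, -5.07 and -4.52 in A549, below background on all 4, and 4.85 and 4.59 in HCC827, at least 195-fold lower in A549 (adjusted p = 4.55e-05). SFTA2, a surfactant-associated protein, was at least 164-fold lower (adjusted p = 4.07e-05), and HOPX, a marker of alveolar type 1 cells, at least 18.5-fold lower (adjusted p = 7.57e-05). NAPSA, the aspartic protease that processes surfactant protein B, read -2.54, -2.41, -2.46 and -3.45 against 5.33 and 5.13 (-8.02, adjusted p = 0.000127). LPCAT1, a surfactant lipid enzyme, was 7.91-fold lower (adjusted p = 0.000498). FOXA2, a pioneer factor of lung and liver, went the other way, at 2.77, 2.68, 2.99 and 3.13 against -0.91 and -1.02 (3.91, adjusted p = 0.000161). In all, 1 of 17 tested lung genes was higher in A549 and 8 lower (median -1.15), and 2 were higher without the array labelled mock 3. LAMP3 read -1.57, -1.42, -0.79 and -4.57 in A549 and 1.02 and 0.68 in HCC827 and was not called (adjusted p = 0.0784), with the array labelled mock 3 far from the others. In A549, labelled lung adenocarcinoma, the defining lung markers NKX2-1 and SFTA2 were thus below background.

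Of the hepatic and gastrointestinal genes tested, 14 of 17 were higher in A549 and 2 lower, with a median of 4.42, or 3.77 at the bounds. Many of the 14, CPS1, TFF1 and the fibrinogen chains among them, were above background in A549 alone, so the filter set their direction. CPS1, the mitochondrial enzyme that starts the urea cycle, read 6.29, 6.19, 6.24 and 5.83 in A549 and -5.34 and -5.23 in HCC827, at least 646-fold higher (adjusted p = 2.97e-05). TFF1, a mucosal peptide of the stomach, read 4.82, 4.77, 4.88 and 3.03 and was at least 163-fold higher (adjusted p = 0.000754). The fibrinogen chains FGA and FGG were at least 12.8-fold and 39.2-fold higher. FGB read 1.38, 1.30, 1.12 and -0.86 in A549 and was at least 13.6-fold higher (adjusted p = 0.00912), but without HCC827 replicate 1 or 2 the adjusted p was 0.0633 and 0.0638. HNF4G was at least 2.36-fold lower in A549 (limma, adjusted p = 0.00253), and SERPINA1 was lower by 2.77 (adjusted p = 0.00633). Of the 34 members on the array 17 were not tested. HNF4A, ALB and AFP were among these, above background in neither group as a whole, so the group was a selection of hepatic genes.

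Squamous markers gave 1 higher and 4 lower of 9 tested (median -2.52), and 4 were called higher without the array labelled A549 mock 3 and 0 without HCC827 replicate 1. SOX2, a stemness factor of squamous and small cell cancers, was below background in A549 and read 4.5 and 4.33 in HCC827, at least 158-fold lower in A549 (adjusted p = 0.000127). KRT16 (-3.54), S100A2 (-3.11) and SPRR1B (at least 9.36-fold) were lower too. KRT6A, a keratin of stressed epithelium, was higher in A549, at 4.36, 4.46, 4.63 and 0.99 against values below background, at least 94.3-fold (adjusted p = 0.00757, but 0.0628 without HCC827 replicate 1). Of 5 neuroendocrine genes tested 4 were higher in A549 and 1 lower, the latter not called without HCC827 replicate 1. UCHL1, a neuronal deubiquitinase, read 8.08, 7.93, 8.08 and 8.13 against 1.43 and 0.94 (6.89, 119-fold, adjusted p = 5.4e-05), CHGA, chromogranin A, was at least 3.96-fold higher (adjusted p = 0.000268), and DLL3 higher by 2.39 (adjusted p = 0.00157).

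Epithelial junction and surface genes were lower in A549 as a group, 22 of 39 tested lower and 4 higher, with a median of -2.02. Without either HCC827 replicate the genes called higher were 2. ESRP1 and ESRP2, the splicing factors that keep epithelial isoforms, were at least 24.2-fold and 142-fold lower, and PRSS8, a membrane serine protease, at least 141-fold. CLDN4, a tight junction claudin, read 1.23, 1.12, 1.31 and -0.53 against 7.56 and 7.48 (-6.87, adjusted p = 0.000871), and CLDN7 differed by -7.56 (adjusted p = 0.00034). CDH1, E-cadherin, was high in both lines and 4.56-fold lower in A549, at 2.72, 2.61, 2.82 and 2.35 against 4.86 and 4.75 (-2.19, adjusted p = 0.00105). EPCAM, an epithelial adhesion molecule, read 2.73, 2.71, 2.78 and 0.59 in A549 and 6.19 and 6.38 in HCC827 (-4.26, adjusted p = 0.00762), and lost the call without HCC827 replicate 1 or 2 (adjusted p = 0.0541 and 0.0576). KRT8, a simple keratin, was higher in A549 (2.65, adjusted p = 0.000288), with 2 of its 3 probes called. JUP, TJP1, DSP and PKP3, at 0.47, 0.18, 0.68 and 0.17, were not called.

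Mesenchymal genes gave 9 higher and 1 lower of 15 tested (median 1.68). Those called higher were 5 and 4 without HCC827 replicate 1 and 2. S100A4, a calcium-binding protein of motile cells, read 7.23, 7.18, 7.35 and 6.26 in A549 and -1.05 and -1.18 in HCC827 (8.05, 265-fold, adjusted p = 0.000138). CDH11, a mesenchymal cadherin, read 2.62, 2.62, 2.85 and 2.58 and was at least 60.4-fold higher (adjusted p = 4.41e-05). VIM, vimentin, read 4.65, 4.86, 4.82 and 7.48 against 0.82 and 1.28 (4.63, adjusted p = 0.0118), and CDH2, N-cadherin, 1.27, 1.18, 1.37 and 3.6 against -2.53 and -2.26 (4.46, adjusted p = 0.00804). In both the array labelled mock 3 was the highest and, for EPCAM and CLDN4, the lowest of A549, yet all A549 arrays lay on the same side of HCC827. Without HCC827 replicate 1 or 2 the adjusted p of VIM was 0.0828 and 0.0646 and that of CDH2 0.0632 and 0.0526. CCN1, a matricellular target of YAP, was lower in A549 (-4.32, adjusted p = 0.00254), and TWIST1 (-0.25) and SNAI1 (0.62) were not called.

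Matrix genes gave 14 higher and 4 lower of 31 tested (median 0.87). NID2, a basement membrane linker, read 3.43, 3.61, 3.67 and 2.57 in A549 and was at least 89.7-fold higher (adjusted p = 0.000772). The fibrillar collagen genes COL5A2 and COL5A1 were at least 50.7-fold and 40.6-fold higher, where COL5A1 read 3.90 on the array labelled mock 3 and 1.31 to 1.42 on the others. COL7A1, of anchoring fibrils, was at least 41.3-fold higher (adjusted p = 0.000177). On the HCC827 side lay TNC, tenascin C (at least 17.5-fold lower in A549, adjusted p = 7.82e-05) and LAMC3, a laminin chain (at least 14.9-fold, adjusted p = 0.000642). Of 12 integrins tested 2 were higher and 2 lower, the latter 0 after normexp. ITGB4, which binds laminin in hemidesmosomes, read 5.50, 5.29, 5.56 and 5.61 in A549 and 2.67 and 2.34 in HCC827 (3.02, adjusted p = 0.000313).

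Keratins gave 6 higher and 3 lower of 13 tested (median 0.31), and 10 were called higher without the array labelled A549 mock 3. KRT81, a hair keratin, read 9.26, 9.35, 9.51 and 9.84 in A549 and 2.29 and 2.11 in HCC827 (7.35, 163-fold, adjusted p = 5.4e-05). KRT4, of mucosal epithelium, was 92.6-fold lower (-6.53, adjusted p = 7.84e-05). CEACAM adhesion genes gave 3 higher of 6 tested and 0 lower, and none was called without A549 replicate 1 or either HCC827 replicate. CEACAM6 read 7.34, 7.33, 7.35 and 4.27 against 1.90 and 1.5 (4.62, adjusted p = 0.0179). Its call ended without A549 replicate 1 (adjusted p = 0.0553) or HCC827 replicate 1 (0.0899) or 2 (0.104), and the array labelled mock 3 was the lowest of A549. Of 8 mucins 2 were higher and 1 lower, of which 0 and 1 were called higher without HCC827 replicate 1 and 2, and 0 lower without A549 replicate 1 or either HCC827 replicate. MUC5B, a gel-forming airway mucin, read 3.35, 3.33, 3.33 and 0.65 against -2.57 and -2.52 (4.98, adjusted p = 0.00891, but 0.064 and 0.0601 without HCC827 replicate 1 and 2).

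The result for interferon-stimulated genes rested on the array labelled A549 mock 3. With it, 3 of 38 tested were higher and 1 lower, with a median of -0.02. Without it, 19 were called higher in A549 and 3 lower, whereas without A549 replicate 1 or 2 it was 1 higher and 2 or 3 lower, and without either HCC827 replicate 1 higher. MX1, an antiviral GTPase, read 3.15, 3.13, 3.84 and -2.19 in A549 and 3.38 and 2.74 in HCC827. IFIT1, which binds foreign RNA, read 5.50, 5.38, 5.90 and -0.02 against 2.55 and 2.12, and IFI44 2.68, 2.59, 2.87 and -3.76 against 3.40 and 3.26. In all 3 genes, none of them called, the array labelled mock 3 was far below the other A549 arrays, and array 1-2 on the same slide was not. BST2, tetherin, read 0.50, 0.47, 0.91 and -4.57 against 4.64 and 4.37 and was not called (-5.57, adjusted p = 0.0501), although 1 of its 2 probes was. IFITM2, which blocks viral entry, was higher in A549 (2.54, adjusted p = 0.00299).

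Of 18 class I HLA and antigen processing genes 2 were higher, TAPBP (1.25, adjusted p = 0.00506, 1 of its 3 probes called, but 0.0577 without HCC827 replicate 2) and TAP1, and 0 lower, with a median of -0.61. TAP1, a peptide transporter, differed by 1.57 (adjusted p = 0.0295), and lost the call without A549 replicate 1 (adjusted p = 0.0891) or 2 (0.065) and without HCC827 replicate 1 (0.111) or 2 (0.162). B2M, the light chain of class I molecules, was not called (-0.39, adjusted p = 0.688). Of the 6 class II genes tested 2 were lower. HLA-DRB1 read -2.42, -2.36, -2.86 and -2.32 against 1.24 and 1.20 (-3.74, adjusted p = 0.000284). HLA-DRB5 was at least 12.1-fold lower. HLA-DRA, CD74 and CIITA, also on the class II list, were above background on no mock array and were not tested. HLA-DRB genes are near-identical and differ between alleles, so the levels of HLA-DRB1 and HLA-DRB5 are uncertain.

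Chemokines and interleukins gave 9 higher and 5 lower of 18 tested (median 1.29). The genes called lower were 3 without A549 replicate 1 and 2 without either HCC827 replicate. CCL2, which attracts monocytes, read 2.17, 2.02, 2.41 and 3.00 in A549 and -5.29 and -5.35 in HCC827, at least 53.2-fold higher (adjusted p = 8.24e-05). IL32 was higher by 3.49 (adjusted p = 0.00123) and CSF1, the macrophage growth factor, at least 3.90-fold (adjusted p = 0.00177). CSF2, the granulocyte-macrophage growth factor, was at least 7.09-fold lower in A549 (adjusted p = 0.000886) and IL6 lower by 1.94 (adjusted p = 0.00084). In prostaglandin metabolism 3 genes were higher (1 without HCC827 replicate 1) and 4 lower (1 after normexp) of 11. SLCO2A1, the prostaglandin importer, was below background in A549 and read 2.29 and 2.27 in HCC827, at least 36.1-fold lower (adjusted p = 0.000579). PTGS2, cyclooxygenase 2, was higher, at 1.5, 1.44, 1.55 and -0.17 against -1.70 and -2.16 (2.88, adjusted p = 0.0136, but 0.0685 and 0.0921 without HCC827 replicate 1 and 2).

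Glycolysis and hypoxia genes gave 8 higher and 6 lower of 28 tested (median 0.11), or 5 and 3 without HCC827 replicate 1 and 4 and 3 after normexp. HK2, the hexokinase of many tumours, was below background in A549 and read 2.21 and 2.37 in HCC827, at least 36.2-fold lower (adjusted p = 0.000179). CA12, a carbonic anhydrase, read 3.65, 3.6, 3.64 and 3.18 in A549 and was at least 105-fold higher (adjusted p = 4.24e-05), and CA9 at least 10.9-fold. SLC2A3, a glucose transporter, was at least 4.27-fold higher (adjusted p = 0.00012), and PDK1, which closes pyruvate entry to mitochondria, lower (-2.76, adjusted p = 0.00175). ENO1 (0.05), LDHA (0.37), PGK1 (0.00) and SLC2A1 (0.35) were not called. Lipid synthesis gave 6 higher and 5 lower of 31 (median -0.21), with 3 lower without HCC827 replicate 1. FADS2, a fatty acid desaturase, was 12-fold higher (3.58, adjusted p = 0.000171), INSIG1 was lower (-1.65, adjusted p = 0.00461), and FASN, fatty acid synthase (-0.36), was not called.

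IGF-binding and related genes gave 7 higher and 3 lower of 11 (median 1.35). Those called higher were 4 without either HCC827 replicate. IGFBP7 read 2.85, 2.89, 2.82 and 2.72 in A549 and was at least 65.5-fold higher (adjusted p = 5.76e-05), IGFBP4 at least 25.0-fold, and IGF2BP2, an RNA-binding protein, was lower (-3.85, adjusted p = 0.000378). S100 genes gave 7 higher and 1 lower of 13 (median 1.00), with 4 higher without either HCC827 replicate. One of the 7 is S100PBP, which binds S100P and is no S100 protein itself, and its call at 1.00 ended without the array labelled A549 mock 3 (0.96, under 2-fold) or HCC827 replicate 1 or 2 (adjusted p = 0.0527 and 0.0728). S100P read 9.53, 9.58, 9.59 and 8.39 against 2.62 and 2.69 (6.52, 92.1-fold, adjusted p = 0.000339), while S100A10, S100A11 and S100A13, at 0.57, 0.43 and 0.09, were not called.

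HOX genes, which record position along the body, gave 10 higher and 3 lower of 21 (median 0.74), or 6 higher without HCC827 replicate 2 and 5 higher and 1 lower after normexp. HOXA7 was higher in A549 (2.71, adjusted p = 0.00206), and HOXB2 lower (-3.48, adjusted p = 0.000379, 1 of its 2 probes called). Of 7 cancer-testis genes tested 4 were higher and 2 lower. MAGEA6 read 4.85, 4.82, 4.83 and 5.09 and was at least 284-fold higher in A549 (adjusted p = 6.1e-05), with the reserve that MAGEA genes are near-identical, and CT83 read 3.01 and 3.16 in HCC827 and was at least 62.8-fold lower in A549 (adjusted p = 4.55e-05). LIN28B, an oncofetal RNA-binding protein, was at least 9-fold higher (adjusted p = 6.38e-05). Of 7 metallothioneins tested none was called by limma or by the methods' t-test, 2 were called lower after normexp or under quantile scaling, 1 higher and 4 lower without the array labelled A549 mock 3, and 3 had an unadjusted p under 0.05. MT1E read 2.95, 2.97, 1.35 and 4.63 in A549 and 4.87 and 5.06 in HCC827, and the lowest adjusted p of the 7 was that of MT1F (1.73, adjusted p = 0.0645).

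Ranked by size, with the bound where a line was below background, the 10 largest differences on the A549 side were TESC, AKR1C1, ALDH1A1, ALDH3A1, AKR1B15, AKR1B10, GNG11, CPS1, SPP1 and C3. The AKR1 genes among them carry the reserve above on near-identical relatives. TESC, tescalcin, a calcium-binding regulator of sodium-proton exchange, read 7.97, 7.75, 8.0 and 8.28 in A549 and -5.56 and -5.45 in HCC827, at least 2489-fold higher (adjusted p = 2.97e-05). GNG11, a G protein gamma subunit, read 6.14, 6.09, 6.2 and 6.57 and was at least 738-fold higher, and C3, the central complement component, at least 331-fold. On the HCC827 side 9 of the 10 were UCA1, RAMP1, CDH3, CST6, LCP1, NAPSA, G0S2, TMEM125 and ADGRF1. UCA1, a long non-coding RNA, read -1.22, -1.41, -1.18 and -4.50 in A549 and 6.85 and 6.95 in HCC827 (-9.23, 600-fold lower in A549, adjusted p = 0.00219). RAMP1, a co-receptor for calcitonin gene-related peptide, was below background in A549 and read 6.30 and 6.25, at least 574-fold lower. CDH3, P-cadherin, read -2.80, -2.67, -2.69 and -4.59 against 5.21 and 5.04 (353-fold, adjusted p = 0.000535), CST6, a cysteine protease inhibitor, was at least 325-fold lower, LCP1, an actin bundler, at least 279-fold, and G0S2, an inhibitor of triglyceride lipase, at least 245-fold. TMEM125 and ADGRF1, an adhesion G protein-coupled receptor, were each at least 222-fold lower.

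Along the genome, differences were not spread evenly. On chromosome 4 the median difference was -0.70, with 53 genes higher and 153 lower of 443. On chromosome 15 it was 0.54, with 126 higher and 32 lower of 396, and on chromosome 10 it was 0.42, with 134 higher and 43 lower of 503. The same medians in the TRIM58-WT arrays were -0.72, 0.69 and 0.42. Most other chromosomes also had close medians in both, such as -0.21 and -0.23 on chromosome 12 and 0.22 and 0.21 on chromosome 20. Chromosomes 5, 7 and 8 moved most. The median of chromosome 5 was -0.15 in mock and -0.64 in TRIM58-WT, that of chromosome 7 -0.36 and -0.06, and that of chromosome 8, where 42.9% of genes were called, turned from 0.30 to -0.09. Among 11412 windows of 15 neighbouring tested genes, ranked after the data were seen, the 1st and 99th percentiles of the medians were -1.68 and 1.22. The lowest was a cluster of zinc finger genes on chromosome 19 from ZNF480 to ZNF347 at -2.86, with 13 of 15 genes called lower and -2.91 in TRIM58-WT. Next to it in size was GMIP to ZNF100 on the same chromosome at -2.72, but -1.09 in TRIM58-WT. The window that holds EGFR, from POM121L12 to ZNF727, stood at -2.34 and a cluster of protocadherin genes on chromosome 5, from PCDHA3 to PCDHGA2, at -1.84. The highest was TUBB8 to TUBAL3 on chromosome 10, which includes PFKP and the AKR1C genes, at 2.50 with 12 of 15 genes called higher, and 1.34 in TRIM58-WT. Windows from TESK1 to GNE on chromosome 9 and from HAPLN3 to CIB1 on chromosome 15 followed, at 1.71 and 1.65.

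The 5 TRIM58-WT arrays give the same line difference on samples the mock comparison did not use. There 6099 of 19811 probes were called (30.8%). Of 5483 mock calls that were tested there, 5262 went in the same direction (96.0%) and 3651 were called in it (66.6%), where 80.4% of all 18675 probes tested in both had the same direction. Across those probes the differences of both pairs of groups had a Pearson correlation of 0.83, a description over probes that share arrays. EGFR differed by -5.06 in TRIM58-WT, CDKN2A by -7.16, SMARCA4 by -3.87, NKX2-1 by -8.26 and TESC by 12.71 (fitted values for the last 2, each below background in 1 line), and the differences of these 5 genes did not differ between mock and TRIM58-WT past an adjusted p of 0.05.

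A contrast over all 10 replicates tested where the line difference itself differed between mock and TRIM58-WT cells, and called 796 of 20641 probes (3.86%) at an adjusted p under 0.05. Among 340 genes named or listed above 54 passed. The 340 are the called genes of the lists and rankings, chosen on the mock arrays that the contrast uses again. To these were added the tested markers and mutated genes, called or not, and GAPDH and ACTB. In 15 of the 54 the fitted difference had the opposite sign in TRIM58-WT. Of those 15, 11 were tested there and 6 had an adjusted p under 0.05 in TRIM58-WT, and the sign of the others carries no direction. CEACAM6 was among these 6, with a difference of 4.62 in mock and -3.39 in TRIM58-WT (adjusted p of the change 0.0108), where all 3 A549 TRIM58-WT arrays were below background. FGB, a fibrinogen chain, was below background in HCC827 mock and in A549 TRIM58-WT, and was read above it in A549 mock and HCC827 TRIM58-WT (adjusted p of the change 0.00648). ITGB4 differed by 3.02 and -0.76 (adjusted p of the change 0.000194), the latter under 2-fold. GPX2 differed by 7.22 in mock, while in TRIM58-WT the arrays of the lines overlapped (-0.09, adjusted p = 0.935). KRT6A and CYP4F11 were detected in all A549 mock samples, but were below background on the TRIM58-WT arrays of both lines and were not tested there, and HOPX, above background in HCC827 mock alone, was not tested there either. SOX2 was below background in A549 mock and read 0.50, -1.63 and -1.50 in A549 TRIM58-WT and 1.03 and 2.12 in HCC827 TRIM58-WT (adjusted p = 0.0515 between the lines there, and 0.00821 for the change). CPS1 read 1.32, -0.47 and -0.45 in A549 TRIM58-WT. EPCAM (-4.26 and -9.14, adjusted p = 0.0291) and UCHL1 (6.89 and 10.04, adjusted p = 0.000889) differed more in TRIM58-WT, as did CDH2 by its fitted values (4.46 and 8.53, adjusted p = 0.0431), with HCC827 TRIM58-WT below background. For FGB, CEACAM6, EPCAM and CDH2 the array labelled mock 3 lay between the other A549 mock arrays and the A549 TRIM58-WT arrays.

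**Figure D4:**
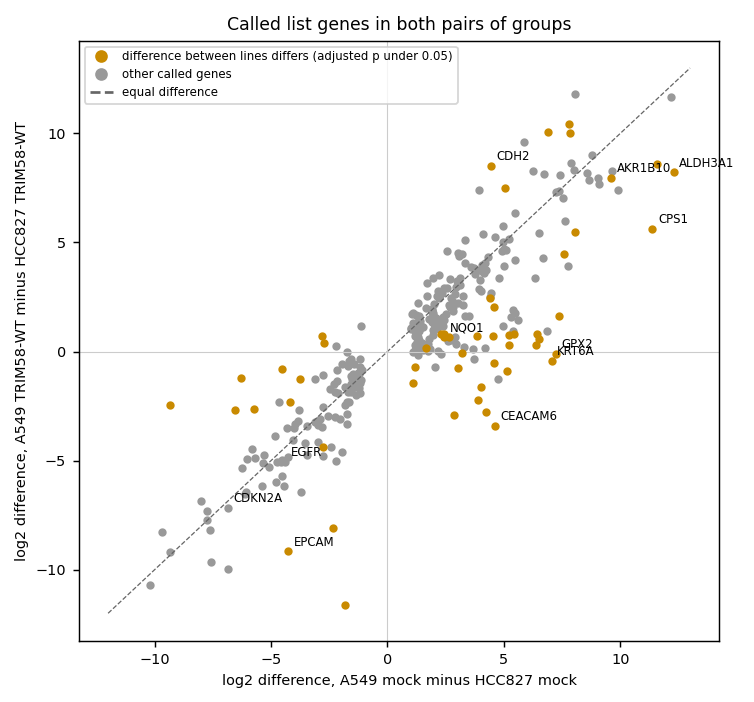
Log2 difference between A549 and HCC827 in mock cells (horizontal axis) and in TRIM58-WT cells (vertical axis), 1 point per called list gene. Orange points differ between both at an adjusted p under 0.05, grey points do not, and the dashed line marks equal differences. Differences of genes below background in a line are fitted values, not bounds. EGFR, CDKN2A and most genes lie near the line, and CEACAM6 lies in the quadrant of opposite sign.

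**Figure D5:**
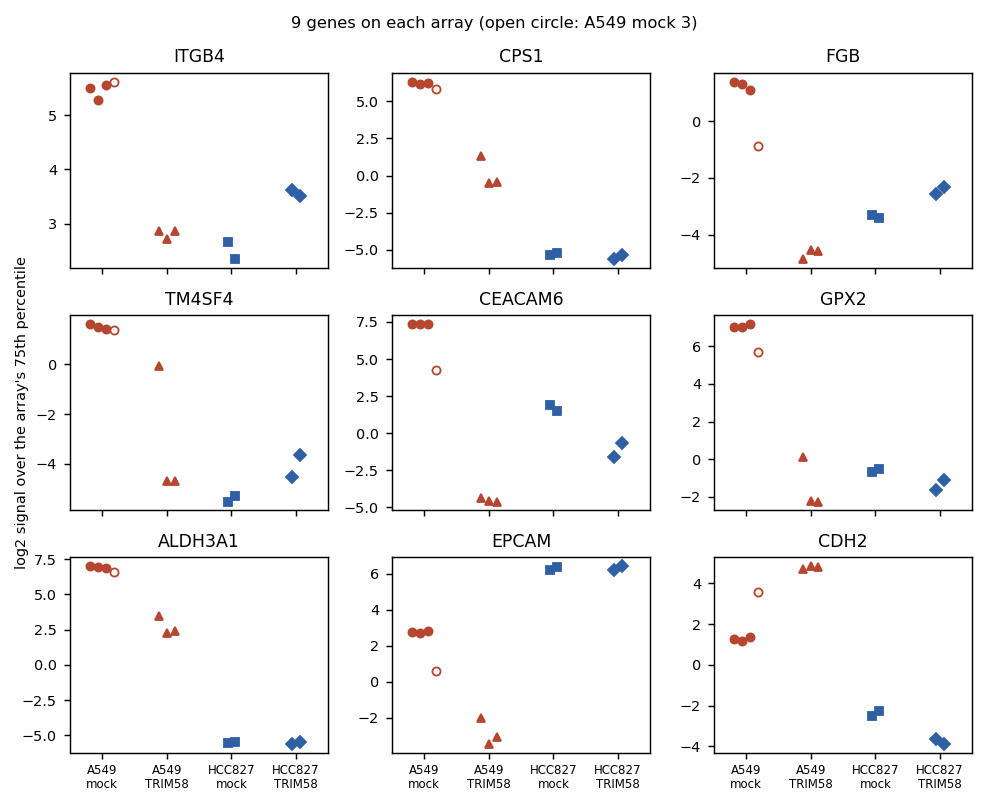
Log2 signal over the 75th percentile of the array (vertical axis, a separate scale for each gene) of 9 genes on each array of the 4 groups (horizontal axis). Circles are A549 mock, open for the array labelled mock 3, triangles A549 TRIM58-WT, squares HCC827 mock and diamonds HCC827 TRIM58-WT. CEACAM6 lies at 4.27 to 7.35 in A549 mock and at -4.61 to -4.40 in A549 TRIM58-WT, and the array labelled mock 3 is apart from the other A549 mock arrays for FGB, CEACAM6, GPX2, EPCAM and CDH2.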

How the data were processed

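RNA of 11 samples was hybridised to Agilent 1-colour arrays by the authors. The authors extracted spots with Agilent Feature Extraction, version 11.5.1.1 per the file headers and 10.7 per the submitters' processing notes. The deposited files give the intensity of each spot after background subtraction and trend removal, with arrays not yet set on 1 scale. A log2 table of the same arrays came from the authors as well, and after centring of each probe it matched the values here within 0.01 in 93.8% of cases, with a largest difference of 4.94. Its scale and direction were found from that match. No spot was saturated. Depth has no meaning for arrays, and their number limits the precision.

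From the intensity values, spots marked as control or as outlier were dropped, the spots of a probe averaged, log2 taken and the 75th percentile over 42405 probes subtracted. That percentile ranged from 60.3 to 125 over the mock arrays. Probes were tested where Feature Extraction marked them as well above background on all arrays of 1 line or both. The test was that of limma 3.58.1 (lmFit and eBayes) in R 4.3.3, 3 A549 replicates against 2 of HCC827. A value was missing for 6 of the probes tested. Replicates are not stated to be separate cultures, so p-values measure the spread between these samples, which may be technical. Symbols and promoters came from RefSeq tables of GRCh38.p14, and 27241 probes (20249 symbols) were named. Of the probes tested, 81.8% had a symbol.

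Named are the markers and mutated genes, the 10 largest differences in each direction, the defining and up to 6 largest called members of each list, TRIM58, GAPDH and ACTB, and genes whose probes disagree. Some genes and 1 list that this rule names are not reported here. Other genes in the text are not-called members or neighbours, chosen after their values were seen. The members and lists were chosen with earlier results of these data known. In 8 genes, probes were called in both directions. On simulated data of 19499 probes, limma called 56% of 100 probes changed by log2 2 and 72% of 100 changed by 3, with 10 false calls, and the methods' t-test called 0% and 1%. No other probes were changed there, whereas limma called 30.3% of probes here, and the adjustment is stricter when few probes change. These rates are thus not those of the present comparison, in which the methods' t-test called 3003 probes. Alternatives were other scalings, background correction, filters, fits, uses of arrays 1-1 and 1-2, blocks, the authors' log2 table, and each replicate left out.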

Additional observations from a re-analysis of the deposited data

Results flagged for a closer look

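The difference between the lines itself differed between mock and TRIM58-WT cells for 796 of 20641 probes (limma, adjusted p under 0.05). Of 33 genes, which were the markers, the mutated genes, the largest differences, GAPDH and ACTB, 6 were among them. The values that follow are the mock difference minus the TRIM58-WT difference on the log2 scale, as fitted, also where a line was below background. They were 4.08 for ALDH3A1 (adjusted p = 0.00423), 5.76 for CPS1, 2.97 for AKR1C1, 1.63 for AKR1B10 (adjusted p = 0.0131), 1.77 for NQO1 (adjusted p = 0.045) and -1.61 for ADGRF1 (adjusted p = 0.0342). In all 6 the lines differed in the same direction in mock and TRIM58-WT cells, by more in mock cells. ALDH3A1, CPS1, AKR1C1, AKR1B10 and ADGRF1 stood among the largest mock differences, and the contrast used the same mock arrays. That choice by itself favours a smaller difference in TRIM58-WT cells, so the shared pattern is a description. NQO1, at 2.45 in mock, differed by 0.68 in TRIM58-WT (adjusted p = 0.0586) and was not called there. No group had 4 to 10 replicates, so no replicate was tested as an outlier.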

How the results depend on the processing

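The direction of all 342 called results that the text names or that the lists hold was kept under every alternative run, with the exception of SC5D, which was 0.016 after normexp. Of uncalled genes, ACTB was -0.015 with slide as a block and on slide 1 alone, and KEAP1 ranged from -0.11 to 0.042 with each replicate left out, above 0 without A549 replicate 1 or HCC827 replicate 1 (0.022). The count of 5906 called probes (2753 higher, 3153 lower) was 3045 with normexp (1544 and 1501), 3003 by the methods' t-test after Benjamini-Hochberg (1404 and 1599), 2715 at 4-fold (1313 and 1402) and 3435 among probes above background on every array of both lines (1527 lower). With each replicate left out it ranged from 3773 to 6800, from 1858 to 3273 higher and from 1915 to 3527 lower. Leaving out an HCC827 replicate leaves a lone sample that is assumed to vary like A549. The share of calls higher in A549 stayed between 44.8% and 55.5%. Replicate numbers do not pair the samples, since deviations of the same-numbered replicates 1 correlated at 0.0866, and with the replicate block 6507 probes were called. Of the 342 results, normexp kept the call of 272, the methods' t-test of 203, leaving out either HCC827 replicate 252, and leaving out the array labelled A549 mock 3 335. The cause of these losses was not tested.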
